A study of Mus musculus with 16 samples.

Results

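The 10 genes described here encode GTPases that cells make in response to interferon gamma: 4 guanylate-binding proteins (Gbp2, Gbp3, Gbp5 and Gbp7) and 6 immunity-related GTPases (Iigp1, Tgtp1, Ifi47, Irgm1, Irgm2 and Igtp). They were chosen by symbol, through the Entrez identifiers of the count table, and all 10 were found among its 27179 genes. All 10 also passed the filter on low counts that left 16017 genes for testing. RNA was sequenced from 15 Trp53 null mouse mammary carcinomas, 3 in each of 5 groups. Transplants of tumor family F (F2 generation) were grown orthotopically in BALB/cJ female mice aged 8 to 10 weeks and frozen 7 days after treatment. Sham mice were given control IgG at 25 mg/kg. TGFbi mice were given daily doses of 20 mg/kg of the small molecule IPW-5371, which inhibits TGF beta signaling. RT mice had a single focal dose of 10 Gy, and TGFbi+RT mice had the inhibitor and the radiation. Mice of the triple combination (TGFbi+RT+anti-PD-L1, called the triple group) had both and a weekly 10 mg/kg dose of PD-L1 antibody. All tumors are of 1 transplant family in immune-competent hosts, so they stand for 1 tumor model. The labels give 3 tumors in each group and do not say whether any shared a mouse, so p-values measure the spread between these tumors.

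Interferon gamma binds a receptor that signals through the kinases Jak1 and Jak2. Its target genes carry DNA elements called GAS, and elements called ISRE, which the transcription factor Irf1 binds. Guanylate-binding proteins are large GTPases that assemble on pathogen membranes and vacuoles and help to start inflammasome signaling. Immunity-related GTPases fall into effectors, which load onto vacuoles and break them (Iigp1, Tgtp1 and Ifi47 here), and regulators on the cell's own membranes, which hold the effectors inactive (Irgm1, Irgm2 and Igtp). In tumors these transcripts are widely read as a mark of interferon exposure of tumor, stromal and immune cells alike.

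The members lie in clusters of related genes, and their start regions are shown because all 10 genes were highest in the same 2 tumors. Positions are on build GRCm38, per the deposited annotation. Gbp5 (chr3:142496934-142522344), Gbp7 (chr3:142530338-142550083), Gbp3 (chr3:142560052-142573212) and Gbp2 (chr3:142620663-142638008) lie in that order on the plus strand of chromosome 3. On chromosome 11, Irgm1 (chr11:48865249-48871346) and Tgtp1 (chr11:48985329-48992246) lie on the minus strand, and Ifi47 (chr11:49087055-49096971), Igtp (chr11:58199556-58207592) and Irgm2 (chr11:58214977-58222783) on the plus strand. The gene models have 2 to 11 exons and 1673 to 5552 exon bases. Among the 10 models, Ifi47 alone shares exon bases with another gene, 90 bases with Olfr56. Tgtp1 has a near-identical copy, Tgtp2, and the guanylate-binding genes are close paralogs, so reads may have been split or lost between copies in the deposited counts.

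RefSeq promoter windows (build GRCm38.p6, 250 bases before to 50 after the start) were used for 9 of the 10 members, all except Iigp1. A chromosome was left out of the window set, so shares over windows cover only the other chromosomes. Both strands were searched for an ISRE core (GAAA, any 2 bases, GAAA) and a GAS element (TTC, any 3 bases, GAA). An ISRE core stood in a window of 8 of the 9 members, against 3.44% of 32851 windows. A GAS element stood in 5 of the 9, against 8.3% of windows, and 5 held both, against 0.454%. Positions are counted from the start, with the base before it as -1. The ISRE core began between -100 and -1 in 7 members, and at -165 in Gbp5. In Tgtp1, Irgm2 and Igtp the GAS element was followed, after 2 bases, by the ISRE core, an arrangement chosen after the sequences were seen. It occurred in 5 of the windows searched (0.0152%), those of Tgtp1, Tgtp2, Irgm2, Igtp and Gm12185. Within 60 bases around the ISRE core, Irgm2 and Igtp were identical at 58 positions and Irgm2 and Tgtp1 at 41, so these members share sequence and are not independent. Ifi47 had neither motif, but its window lies 10468 bases from the start of the deposited gene model, and those of the other 8 members lie within 304 bases. A match is a description of the letters, not evidence of binding. The stretches that hold the motifs, all upstream of the start and read on the gene's strand, are given with matches in capitals on either strand:
Gbp2 (chr3:142620574-142620643, plus strand): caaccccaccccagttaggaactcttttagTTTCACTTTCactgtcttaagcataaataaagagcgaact
Gbp3 (chr3:142559969-142560043, plus strand): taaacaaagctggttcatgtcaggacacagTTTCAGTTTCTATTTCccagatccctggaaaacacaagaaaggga
Gbp5 (chr3:142496684-142496920, plus strand): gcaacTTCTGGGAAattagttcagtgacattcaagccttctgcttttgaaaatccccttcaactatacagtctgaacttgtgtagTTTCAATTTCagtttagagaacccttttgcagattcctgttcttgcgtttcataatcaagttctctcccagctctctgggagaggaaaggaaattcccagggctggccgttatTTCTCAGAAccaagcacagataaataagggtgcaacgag
Gbp7 (chr3:142530200-142530322, plus strand): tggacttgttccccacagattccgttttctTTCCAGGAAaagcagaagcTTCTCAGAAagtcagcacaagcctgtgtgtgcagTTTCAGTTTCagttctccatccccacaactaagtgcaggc
Tgtp1 (chr11:48992284-48992364, minus strand): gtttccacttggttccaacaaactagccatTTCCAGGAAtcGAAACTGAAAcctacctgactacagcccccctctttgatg
Irgm1 (chr11:48871421-48871480, minus strand): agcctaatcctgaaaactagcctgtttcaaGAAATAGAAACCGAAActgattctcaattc
Irgm2 (chr11:58214872-58214952, plus strand): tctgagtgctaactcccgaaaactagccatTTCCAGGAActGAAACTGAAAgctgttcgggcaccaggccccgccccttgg
Igtp (chr11:58199481-58199555, plus strand): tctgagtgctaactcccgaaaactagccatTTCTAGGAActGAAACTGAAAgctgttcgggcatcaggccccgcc

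**Figure D1:**
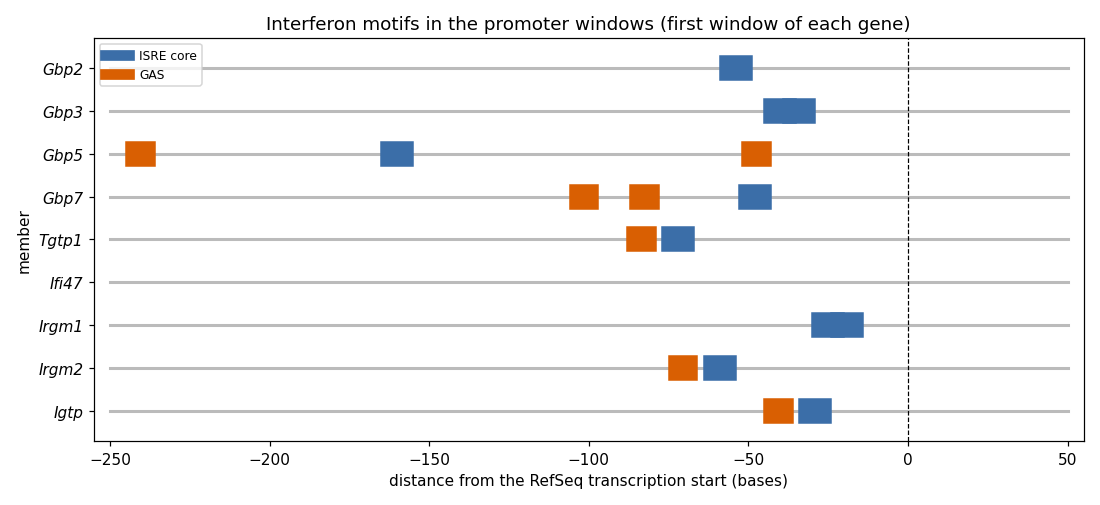
Positions of the ISRE core (blue) and GAS element (orange) in the first RefSeq window of 9 members, as distance in bases from the transcription start (dashed line); each bar spans the motif. Gbp2, Gbp3, Gbp7, Tgtp1, Irgm1, Irgm2 and Igtp have an ISRE core within the 100 bases before the start, and Ifi47 has none of either motif.

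Total counts per tumor were 11002869 to 17184023 (median 13302488). Levels are given as CPM, a gene's count divided by the library total, in the usual unit per 1e6 counts, with TMM scaling factors of 0.919 to 1.05. On the first principal component of all tested genes, which held 46.8% of the variance, TGFbi+RT replicate 3 scored 102 and triple replicate 2 scored 114, against -88.5 to 33.1 in the other 13 tumors. Without the 10 members the scores were 102 and 113 against -88.2 to 33.3. The library of TGFbi+RT replicate 3 is labelled as resubmitted, as is that of TGFbi replicate 3. Library names carry the code A2301 for Sham, TGFbi, TGFbi+RT and triple replicate 1, and A2304 for RT and triple replicates 2 and 3, with no stated meaning. Fold changes by edgeR that rest on the 2 tumors apart are given with and without them.

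The guanylate-binding genes were at similar levels in Sham, TGFbi and RT tumors and at many times those levels in 2 tumors. Gbp2, which coats pathogen vacuoles, measured 18.2, 7.45 and 19.1 CPM in Sham, 24.3, 3.98 and 13.3 in TGFbi, 18.3, 18.1 and 15.0 in RT, 30.5, 21.1 and 487 in TGFbi+RT, and 27.0, 348 and 16.0 in the triple group (replicates 1 to 3 in each). All 3 TGFbi+RT tumors were above all 3 Sham tumors, though replicate 2 by little, and triple replicate 3 lay inside the Sham range. Gbp3, a close relative of Gbp2, measured 17.7, 4.42 and 27.0 CPM in Sham, 16.0, 7.41 and 19.9 in TGFbi, 20.6, 23.7 and 23.9 in RT, 37.5, 17.0 and 335 in TGFbi+RT, and 31.6, 265 and 14.4 in the triple group. Here the Sham range overlapped both combination groups.

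Gbp5, which promotes assembly of inflammasomes, was the least abundant member in Sham per length (0.793 CPM per kilobase of exon). It measured 4.23, 0.491 and 2.46 CPM in Sham, 2.72, 0.877 and 3.88 in TGFbi, 4.61, 2.10 and 1.76 in RT, 7.95, 5.74 and 223 in TGFbi+RT, and 7.20, 190 and 4.81 in the triple group. Every tumor of both combination groups lay above every Sham, TGFbi and RT tumor for this gene, while the lowest Sham value rested on 6 counts. Gbp7, which has been linked to delivery of autophagy and oxidase proteins to vacuoles, measured 37.6, 14.5 and 55.7 CPM in Sham, 40.7, 21.04 and 45.9 in TGFbi, 43.8, 43.1 and 50.2 in RT, 74.0, 34.0 and 534 in TGFbi+RT, and 62.2, 429 and 40.1 in the triple group. Its groups overlapped, since the second TGFbi+RT tumor lay below 2 of the Sham tumors.

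Among the effectors, Iigp1 spanned the widest fold range of any member. It measured 3.28, 0.737 and 4.67 CPM in Sham, 7.03, 2.07 and 8.08 in TGFbi, 11.2, 4.21 and 2.18 in RT, 25.2, 17.3 and 615 in TGFbi+RT, and 11.1, 428 and 17.2 in the triple group. All 3 TGFbi+RT tumors exceeded every Sham, TGFbi and RT tumor, and triple replicate 1 (11.1 CPM) lay just under RT replicate 1 (11.2 CPM). Tgtp1, an effector that loads early onto vacuoles, measured 35.3, 15.7 and 77.3 CPM in Sham, 22.4, 23.2 and 32.9 in TGFbi, 50.3, 64.4 and 58.8 in RT, 97.5, 31.9 and 627 in TGFbi+RT, and 94.0, 393 and 35.3 in the triple group. Replicates 2 of TGFbi+RT and 3 of the triple group lay inside the Sham range. Ifi47, the effector also called Irgd, measured 10.7, 5.07 and 18.3 CPM in Sham, 12.8, 8.77 and 16.9 in TGFbi, 17.2, 14.4 and 9.62 in RT, 15.8, 12.3 and 235 in TGFbi+RT, and 20.7, 143 and 10.4 in the triple group. For Ifi47 the first 2 TGFbi+RT tumors lay inside the Sham range, so its level in that group came from replicate 3.

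The 3 regulators differed in level. Irgm1, which sits on the Golgi, lysosomes and mitochondria, was the most abundant member per length in Sham, at 51.2 CPM per kilobase against 0.793 to 15.2 for the other 9. It measured 100, 92.9 and 149 CPM in Sham, 79.3, 131 and 150 in TGFbi, 133, 174 and 128 in RT, 168, 94.6 and 440 in TGFbi+RT, and 167, 353 and 84.3 in the triple group. Its groups overlapped and its 2 highest tumors stood out least. Irgm2, a regulator on the Golgi, measured 7.15, 2.54 and 9.72 CPM in Sham, 10.0, 3.67 and 6.78 in TGFbi, 11.0, 7.05 and 7.16 in RT, 19.6, 10.8 and 179 in TGFbi+RT, and 15.7, 197 and 14.3 in the triple group. All 6 combination tumors lay above all Sham tumors for Irgm2. Igtp, also known as Irgm3 and found on the endoplasmic reticulum, measured 8.23, 4.66 and 16.3 CPM in Sham, 13.0, 4.46 and 9.45 in TGFbi, 13.3, 15.5 and 10.6 in RT, 24.6, 12.3 and 446 in TGFbi+RT, and 21.5, 279 and 14.8 in the triple group. Here TGFbi+RT replicate 2 and triple replicate 3 lay inside the Sham range.

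**Figure D2:**
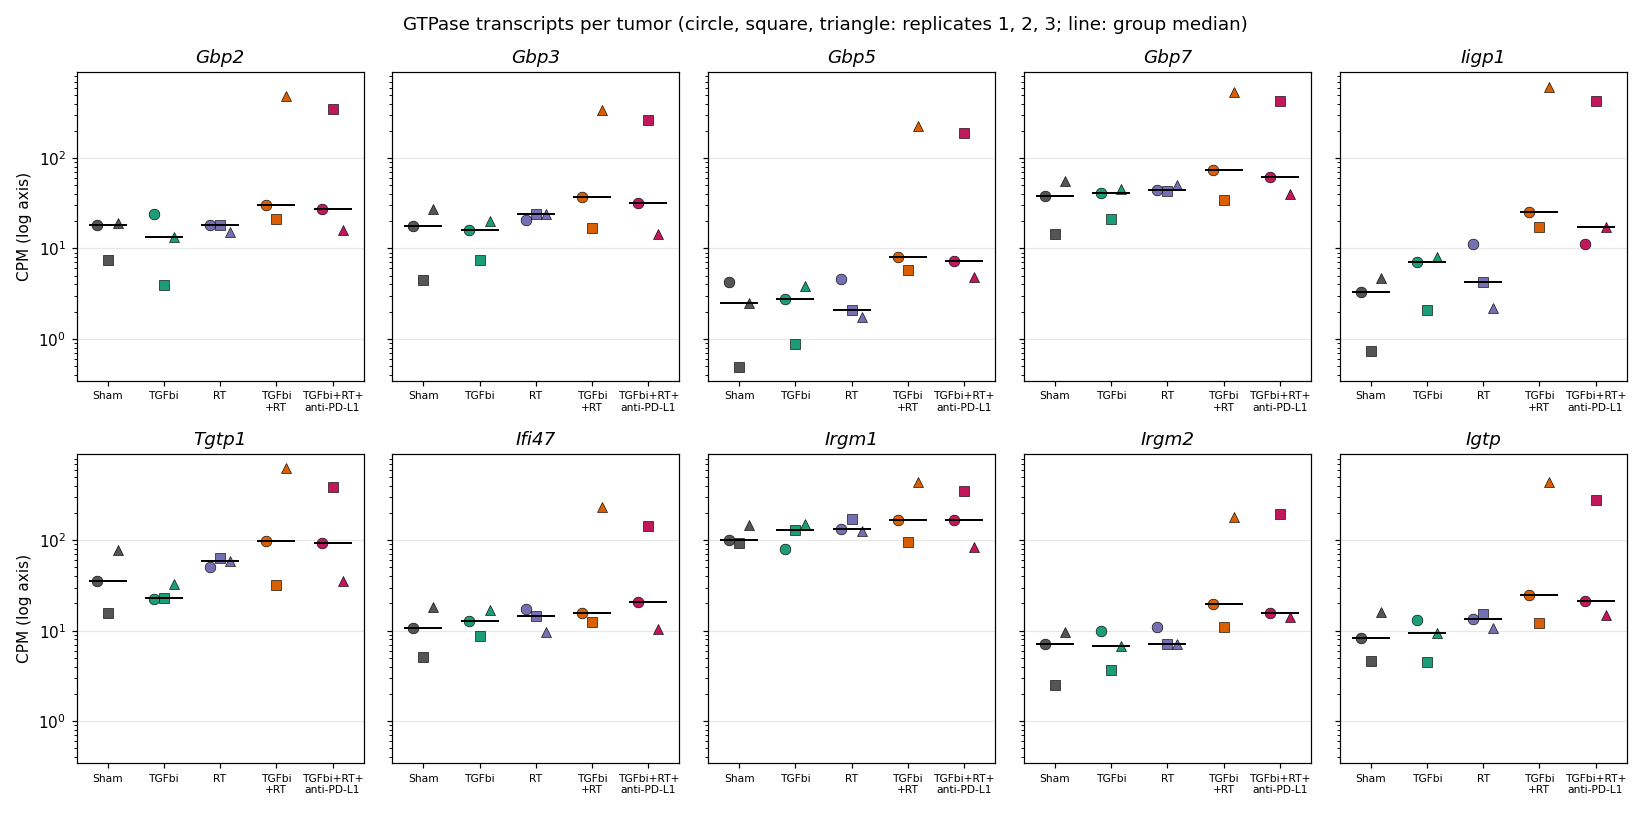
CPM (log axis) of each member in each of 15 tumors, by treatment group; symbols give the replicate and lines the median of 3 tumors. TGFbi+RT replicate 3 and triple replicate 2 are the top pair in all 10 panels, from 142.55 CPM for Ifi47 upward. The other tumors of those groups lie below the pair. They still lie above every Sham, TGFbi and RT tumor for Gbp5, as do those of TGFbi+RT for Iigp1.

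By group median, TGFbi+RT was highest for 9 members and the triple group for 1 (Ifi47), and these groups held the top 2 places for all 10. RT ranked next for 7 members. The lowest median was that of Sham for 5 members, of TGFbi for 4 and of RT for 1 (Gbp5). The order was loose: of 40 neighbouring pairs of groups in these orders, 3 did not overlap between tumors, 1 each for Gbp5, Iigp1 and Irgm2. The share over all tested genes was not computed, so this count only describes the members.

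TGFbi+RT replicate 3 and triple replicate 2 were the 2 highest tumors for every member. Summed over the 10 genes they reached 4123 and 3024 CPM, against 148 to 500 CPM in the other 13. Of all tested genes, 15.9% were higher in both of these tumors than in all other 13. The lower of the 2 exceeded the highest other tumor 23.9-fold for Gbp5, 17.0-fold for Iigp1, 11.4-fold for Gbp2, 11.3-fold for Igtp and 9.15-fold for Irgm2. It exceeded it 7.06-fold for Gbp3, 6.90-fold for Ifi47, 5.80-fold for Gbp7, 4.03-fold for Tgtp1 and 2.04-fold for Irgm1. Thus 9 of 10 members passed a 4-fold gap, which 0.887% of tested genes passed. These are descriptions with no test, since the pair was picked from these same data. Against the Sham mean, TGFbi+RT replicate 3 was 212-fold higher for Iigp1 and 93.3-fold for Gbp5, but 3.86-fold for Irgm1. In triple replicate 2 the same ratios were 148, 79.5 and 3.10.

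The make-up of the GTPase transcript pool differed in these 2 tumors. Per kilobase of exon, Irgm1 made up 40.1% to 69.3% (median 47.5%) of the summed level of the 10 members in the other 13 tumors. It made up 13.0% in TGFbi+RT replicate 3 and 14.5% in triple replicate 2. The share of Iigp1 was 12.9% and 12.5% in the pair, against a median of 2.01% elsewhere, and that of Gbp5 was 4.85% and 5.75% against 1.06%. Igtp stood at 14.5% and 12.6% against 5.26%, and Gbp2 at 13.0% and 12.9% against 5.92%. Tgtp1 and Gbp7 kept shares inside the range of the other 13 tumors. In the pair, Tgtp1, Igtp, Gbp2, Irgm1 and Iigp1 each made up 12.5% to 14.6% of the pool.

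**Figure D3:**
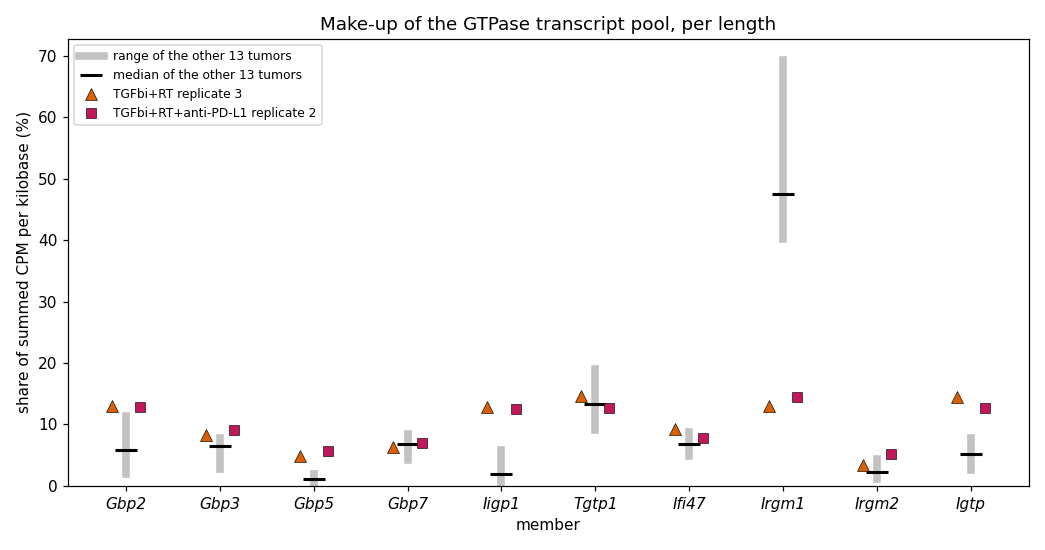
Share (%) of each member in the summed CPM per kilobase of the 10 members; grey bars give the range and black ticks the median of the other 13 tumors, symbols the 2 tumors apart. Irgm1 drops from a median of 47.5% to 13.0% and 14.5%, and Iigp1 stands at 12.9% and 12.5% against a median of 2.01%.

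Among the other 13 tumors most members still tracked each other, over a smaller range, with Irgm1 as the exception. Across 45 pairs of members, Pearson's r of log2 CPM was 0.767 to 0.995 (median 0.953) over 15 tumors, and 0.123 to 0.982 (median 0.778) over 13. The lowest values over 13 tumors were those of Irgm1 with Iigp1 (0.123), Gbp2 (0.143), Gbp5 (0.193) and Irgm2 (0.195). These r values are descriptions over tumors that share groups and libraries. TGFbi+RT replicate 1 was the highest of the 13 for 8 members, the exceptions being Ifi47 (triple replicate 1) and Irgm1 (RT replicate 2). Sham replicate 2 was the lowest of all 15 tumors for 7 members.

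TGFbi was set against Sham for the effect of the inhibitor by itself. Members were split, 5 above and 5 below Sham, with log2 fold changes of -0.71 (Tgtp1) to 0.96 (Iigp1) and a median of 0.01 against -0.01 over all genes. Tgtp1 averaged 26.2 ± 5.87 CPM against 42.8 ± 31.5 in Sham, and Iigp1 5.73 ± 3.21 CPM against 2.89 ± 1.99 (SD, n = 3). The edgeR quasi-likelihood test called 0 members (0.00624% of genes were called), and adjusted p-values were 0.891 to 1. At an unadjusted p under 0.05 it held 0 members, against 1359 of 16017 genes in either direction. No member had all TGFbi tumors above all Sham tumors, as 7.42% of genes did.

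RT was set against Sham for the effect of radiation by itself. All 10 members were higher, by log2 0.20 (Gbp2) to 1.00 (Iigp1), with a median of 0.36 against 0.01 over all genes. The standard errors (0.54 for Irgm1 to 1.54 for Gbp5 and Iigp1) exceeded every one of these changes. The edgeR test called 0 members and 0% of genes, and adjusted p-values were 0.999. At an unadjusted p under 0.05 it held 0 members, against 672 of 16017 genes in either direction. In 0 members did all RT tumors exceed all Sham tumors, as they did in 5.77% of genes. Since every RT library has code A2304 and every Sham library A2301, treatment and code cannot be told apart in this comparison. With the code as a term, estimated from the triple group alone, the member median was -2.01.

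In TGFbi+RT all 10 members were higher than in Sham, and the size of the difference rested on replicate 3. The log2 fold change was 6.22 ± 1.77 for Iigp1, 5.01 ± 1.68 for Gbp5, 4.04 ± 1.37 for Igtp, 3.59 ± 1.32 for Gbp2 and 3.43 ± 1.17 for Irgm2 (± SE). It was 2.98 ± 1.18 for Gbp3, 2.94 ± 1.14 for Ifi47, 2.57 ± 1.02 for Gbp7, 2.56 ± 1.01 for Tgtp1 and 1.04 ± 0.54 for Irgm1. The member median was 3.20 against -0.01 over all genes. The edgeR test called 0 members and 0% of genes, with adjusted p-values of 0.207 (Iigp1) to 0.38 (Irgm1). At an unadjusted p under 0.05, 9 of 10 members were higher by edgeR, against 9.76% of genes. DESeq2 held 5 of the 6 members it gave a p-value at that limit, against 10.7% of genes, and limma-voom 0 against 6.97%. Tumors did not overlap for 4 members, Gbp2, Gbp5, Iigp1 and Irgm2, against 10.7% of genes with all TGFbi+RT tumors above all Sham tumors. All libraries of both groups carry code A2301. Without the 2 tumors apart, all 10 members were still higher, by a median of 0.74 (0.19 for Irgm1 to 2.84 for Iigp1). Iigp1 then stood at 2.84 ± 0.77 and Irgm2 at 1.21 ± 0.51, and these 2 had an unadjusted p under 0.05 (5.92% of genes were higher at that limit). The adjusted p-values were then 0.412 to 0.914. DESeq2 left the p-values of Gbp2, Gbp5, Iigp1 and Igtp undefined in this and every other comparison, through its filter on outlying counts, and here gave Irgm2 an adjusted p of 0.0527. With that filter off, an alternative chosen after seeing the data, it called Iigp1 (adjusted p 0.00246), Gbp5 (0.0227) and Igtp (0.0359), while calling 3.39% of genes.

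In the triple group all 10 members were higher than in Sham, and the size of the difference rested on replicate 2. Log2 fold changes were 5.69 ± 1.73 for Iigp1, 4.79 ± 1.66 for Gbp5, 3.54 ± 1.18 for Irgm2 and 3.43 ± 1.33 for Igtp (± SE). The other 6 members lay between 0.82 (Irgm1) and 3.12 (Gbp2), and the median was 2.89 against 0.00 over all genes (-0.00431). The edgeR test called 0 members and 0% of genes, with adjusted p-values of 0.208 to 0.489. At an unadjusted p under 0.05, 7 members were higher by edgeR, against 9.96% of genes. DESeq2 held 5 of the same 6 members at that limit, against 10.6% of genes, and limma-voom 0 against 7.64%. Gbp5, Iigp1 and Irgm2 did not overlap with Sham, against 9.4% of genes. DESeq2 called Irgm2 alone (log2 fold change 3.56, adjusted p 0.0376) among 3.86% of genes called. Without its outlier filter it called Irgm2 (0.0354), Iigp1 (0.00507) and Gbp5 (0.0254), with 4.18% of genes called. Without the 2 tumors apart the median was 0.54 (0.12 for Irgm1 to 2.25 for Iigp1), and Iigp1 and Irgm2 had an unadjusted p under 0.05, against 4.91% of genes. Of the triple libraries 2 carry code A2304, and all Sham libraries carry A2301. With the code as a term the median of the triple group against Sham was 1.04. Both combination groups were compared with the same Sham tumors, so their values are not independent.

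**Figure D4:**
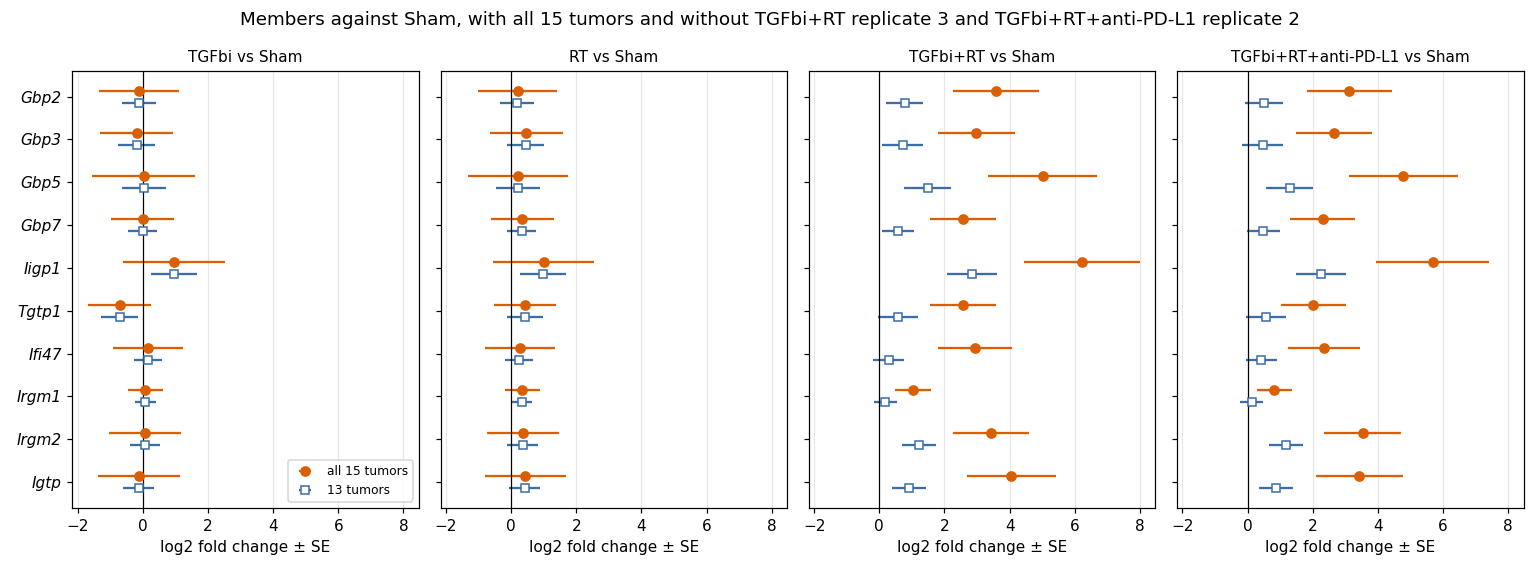
Log2 fold change against Sham (± SE, edgeR) of each member in 4 comparisons, from all 15 tumors (filled circles) and from 13 (open squares, without TGFbi+RT replicate 3 and triple replicate 2). In both combination groups the estimates from 13 tumors are smaller, with medians of 0.74 and 0.54 in place of 3.20 and 2.89, and Iigp1 keeps the highest value.

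The addition of radiation to the inhibitor, of inhibitor to radiation and of the antibody to both were compared directly. TGFbi+RT exceeded TGFbi in all 10 members, by a median of 3.31 (0.96 to 5.26). The edgeR test called 0 members and 0% of genes (adjusted p 0.789 to 0.79), and 3 members did not overlap against 6.37% of genes. At an unadjusted p under 0.05, edgeR held 9 members higher against 4.35% of genes, DESeq2 5 of 6 against 5.11% and limma-voom 0 against 2.08%. TGFbi+RT exceeded RT in all 10 members, by a median of 2.86 (0.69 to 5.22). There 0 members and 0% of genes were called (adjusted p 0.465 to 0.666), and Gbp2, Gbp5 and Iigp1 did not overlap against 7.66% of genes. At an unadjusted p under 0.05, edgeR held 8 members higher against 5.83% of genes, DESeq2 5 of 6 against 6.79% and limma-voom 0 against 4.5%. Every RT library carries code A2304 and every TGFbi+RT library A2301, so treatment and code cannot be told apart here, and with the code as a term the median was 5.23. Without the 2 tumors apart these medians were 0.97 and 0.37, and Irgm1 was lower than in RT by log2 -0.14. With DESeq2's outlier filter off, Iigp1 was called in TGFbi+RT against RT (adjusted p 0.0455, 0.631% of genes called). The triple group differed from TGFbi+RT by a median of -0.39, with 9 members lower and Irgm2 higher (0.11). In that comparison 0 members had an unadjusted p under 0.05 by edgeR, against 318 of 16017 genes in either direction. There 0% of genes were called and the adjusted p was 1 for all members. The median turned to 2.18 without TGFbi+RT replicate 3 and was -2.48 without triple replicate 2.

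The interaction asked whether radiation acted differently with the inhibitor than without it. Over 15 tumors it was positive for all 10 members, from 0.62 ± 0.76 for Irgm1 to 4.77 ± 2.22 for Gbp5 on the log2 scale (± SE), with a median of 2.91 against 0.03 over all genes. The edgeR test called 0 members and 0% of genes, the adjusted p was 1, and 0 members had an unadjusted p under 0.05, against 2.52% of genes with a positive interaction at that limit. DESeq2 held 1 of 6 members, Tgtp1 (unadjusted p 0.0419, adjusted p 1), at that limit, against 2.83% of genes, and limma-voom 0 against 2.09%. Gbp5 had the smallest unadjusted p of the members by edgeR, 0.0511. Without the 2 tumors apart the interaction was positive for 8 members and negative for 2, Irgm1 (-0.21 ± 0.49) and Ifi47 (-0.12 ± 0.65). The median was then 0.66, and the highest value that of Gbp5 (1.25 ± 1.00). By edgeR 0 members then had an unadjusted p under 0.05, against 3.42% of genes with a positive interaction at that limit. The RT group is the only one of the 4 with code A2304, so the interaction cannot be told apart from library code. In the test for any difference among the 5 groups, 0 members and 0% of genes were called (adjusted p 0.299 for Iigp1 to 0.688 for Irgm1). At an unadjusted p under 0.05 it held 9 members by edgeR, all except Irgm1, against 10.8% of genes. DESeq2 held 5 of 6 members at that limit, against 15.1% of genes, and limma-voom 0 against 7.5%. Without the 2 tumors apart edgeR held 1 member, Iigp1 (unadjusted p 0.0195, adjusted p 0.598), against 7.22% of genes. DESeq2 called Irgm2 in that test (adjusted p 0.0138) among 4.1% of genes, and 5 members with its outlier filter off (Gbp2, Gbp5, Iigp1, Irgm2 and Igtp, 4.54% of genes).

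The genes with the profile most like that of the members, by Pearson's r of log2 CPM with the members' mean over 15 tumors, were relatives and interferon genes. Out of 14263 candidates, those named here were Gbp2b (0.99), Gbp10 (0.984), Tgtp2 (0.978), the MHC class I gene H2-T23 (0.976), Gbp4 (0.973), and Parp9 and Parp10 (0.973 and 0.972), which encode ADP-ribosyltransferases. Over the 13 other tumors r was 0.821 (Parp10) to 0.937 (Gbp2b).

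Other genes of both GTPase families, with the very large GTPase Gvin1 listed beside them, fell into those that shared the profile and those that did not. Of 18 listed, 17 were tested, 14 were higher in TGFbi+RT than in Sham and 3 lower, with a median of 5.91. The edgeR test called 0 and DESeq2 called 4, where it called 3.05% of all genes. In the fit of the other 13 tumors 16 were tested, 13 of them higher, and the median was 2.00. In both tumors apart, 13 of the 17 were more than 4 times above every other tumor. Gbp4 reached 932 and 446 CPM against at most 21.6 CPM, and Gvin1, a very large interferon-inducible GTPase, 301 and 324 against at most 50.7. Gm12250, also named Irgb10, measured 116 and 108 CPM against at most 7.43, Gm4951 79.7 and 55.2 against at most 3.46, and F830016B08Rik 64.2 and 45.0 against at most 6.02. By contrast Gm5431 (102 and 58.3 CPM), 9930111J21Rik1 (86.1 and 75.1) and 9930111J21Rik2 (114 and 99.5) lay inside the range of the other 13 tumors. Irgq (17.5 and 24.1 CPM against 8.59 to 22.5) overlapped that range as well. Their r with the members' mean was 0.0951, -0.0796, 0.117 and 0.565. These 4 were picked after their values were seen. Of the 7 relatives with a RefSeq window in the set searched, 4 held an ISRE core and 2 of those a GAS element too.

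Some genes of the interferon gamma pathway were high in the same 2 tumors as the members. Ifng, the ligand, was not tested for its low counts: 25 in TGFbi+RT replicate 3 and 20 in triple replicate 2, against 0 to 5 in every other tumor. Of 14 tested pathway genes, 14 were higher in TGFbi+RT than in Sham (median 1.40), 12 exceeded all other 13 tumors in both tumors apart, edgeR called 0 and DESeq2 called 2 (3.05% of all genes). In the fit of 13 tumors 10 of 14 were higher (median 0.28). Irf1 measured 219 and 168 CPM there against 12.6 to 26.7, and the MHC class II activator Ciita 86.3 and 109 against 0.913 to 16.6. Nlrc5, the activator of MHC class I genes, measured 250 and 209 CPM against 29.3 to 87.5, and the transcription factor Batf2 28.2 and 18.4 against 0.141 to 1.93. The receptor chains and kinases were also above, by less: Ifngr1 at 88.0 and 142 CPM against at most 75.1, and Jak2 at 130 and 102 against at most 56.7. The phosphatase Ptpn2, which damps the pathway, measured 50.2 and 45.8 CPM, inside its range of 36.9 to 53.6.

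**Figure D5:**
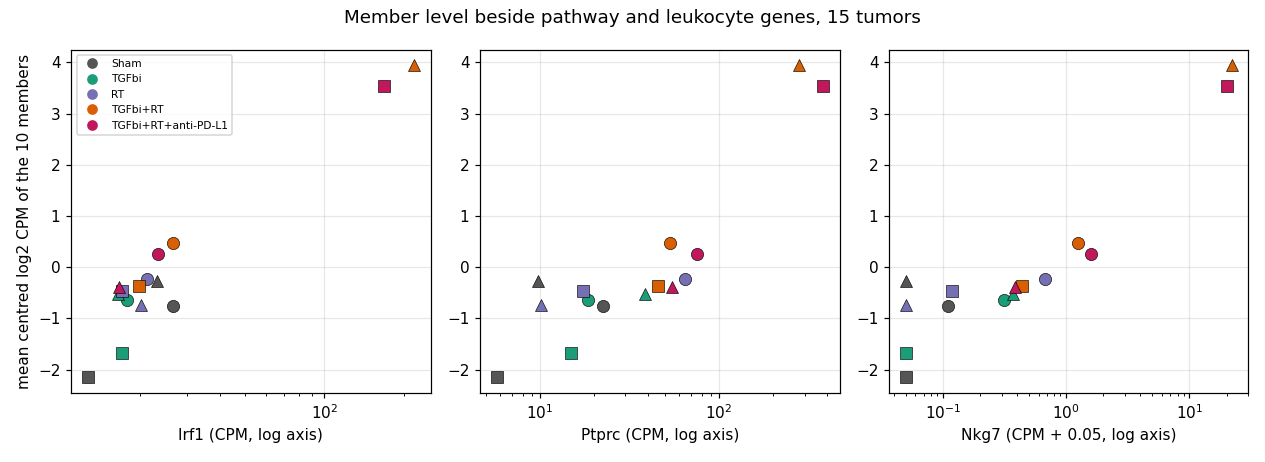
Mean centred log2 CPM of the 10 members (vertical axis) against the CPM of Irf1, the leukocyte gene Ptprc and the lymphocyte gene Nkg7 (log axes) in 15 tumors; colours give the group and circles, squares and triangles replicates 1, 2 and 3. The 2 tumors apart lie at 3.95 and 3.53 on the vertical axis, and the other 13 between -2.15 and 0.48.

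Interferon gamma-induced genes that encode no GTPase were higher in TGFbi+RT than in Sham in 15 of 15 tested (median 2.10, 0 called by edgeR and 2 by DESeq2, against 3.05% of all genes by DESeq2). From 13 tumors 9 of 15 were higher (median 0.37). Cxcl9 and Cxcl10, chemokines that draw T cells, measured 449 and 322, and 201 and 116 CPM in the tumors apart, against at most 7.58 and 6.32 elsewhere. Cd274, which encodes PD-L1, measured 184 and 122 CPM against at most 11.2, and the MHC class II chaperone Cd74 571 and 1439 against at most 114. Type I interferon-stimulated genes were higher in 15 of 15 (median 3.00 in TGFbi+RT, 3.25 in the triple group), with 0 called by edgeR and 9 and 11 by DESeq2, which called 3.05% and 3.86% of all genes. All 15 were still higher in both groups when the 2 tumors apart were left out, by medians of 1.93 and 1.51, with 0 called by edgeR. Oas2 measured 69.7 and 94.2 CPM against at most 20.0, Irf7 134 and 230 against at most 44.6, Cmpk2 35.4 and 43.9 against at most 8.92 and Mx1 33.4 and 32.8 against at most 7.28.

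Transcripts of genes whose proteins work with the GTPases were uneven. Of 15 partners at vacuoles and inflammasomes, 11 were higher and 4 lower in TGFbi+RT (median 0.24, 0 called by edgeR and 0 by DESeq2), and 9 were above all other tumors in both tumors apart. Without these tumors 9 were higher (median 0.13). Rnf213, a giant ubiquitin ligase, measured 1373 and 1328 CPM against at most 356, the cytokine antagonist Il18bp 74.6 and 126 against at most 17.7, the pore former Gsdmd 26.0 and 30.2 against at most 6.75 and the sensor Nlrp3 16.9 and 23.1 against at most 5.30. The autophagy genes Atg3, Atg5 and Atg16l1, whose proteins help load the effectors, lay inside the range of the other 13 tumors. On the same list, Gabarapl2 (8.344 and 8.365 CPM against at most 7.529) and Tax1bp1 (150.1 and 154.8 against at most 144.3) lay above it in both. Atg7 was above it in TGFbi+RT replicate 3 only (38.48 CPM against at most 38.38), and Sqstm1 in triple replicate 2 only (205.8 against at most 201.9).

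Several leukocyte transcripts, though not all, were high in the same 2 tumors as the members. In bulk tumors, fewer cells of a type and less RNA per cell cannot be told apart. Ptprc, which marks leukocytes, measured 280 and 381 CPM in the tumors apart against 5.73 to 74.8 elsewhere. The summed level of 13 T and NK cell markers was 247 and 201 CPM against 0.982 to 46.0, with 6 of 12 tested markers above all other tumors in both. Of these 12 markers, 11 had no count in at least 1 of the other 13 tumors. The 6 were Cd2, Nkg7, Ncr1, Gzma, Gzmb and Prf1, and in TGFbi+RT replicate 3 the cytotoxic genes Gzma, Gzmb and Prf1 made up most of the sum. Gzma measured 63.9 and 23.0 CPM and Gzmb 56.1 and 21.15, against at most 1.41 for each. Nkg7 measured 22.1 and 20.1 CPM against at most 1.53, Prf1 51.7 and 21.02 against at most 2.23 and the NK cell receptor Ncr1 18.4 and 10.8 against at most 1.11, with 0 counts in all Sham tumors. Cd8a measured 2.13 CPM in TGFbi+RT replicate 3 and 13.3 in triple replicate 2, and 6.73 in the highest other tumor, and Cd2 measured 5.53 and 9.25 against at most 3.53. The T cell genes split the pair: in TGFbi+RT replicate 3 Cd3d, Cd3e, Cd3g, Cd4, Cd8a and Cd8b1 all lay inside the range of the other 13 tumors, and in triple replicate 2 all 6 lay above it. Cd3e, for one, measured 6.05 and 22.3 CPM against at most 9.19, and Cd4 11.49 and 39.3 against at most 12.8. Macrophage markers summed to 3267 and 5115 CPM against 226 to 1992 elsewhere, with 8 of 10 above all others in both, all except Mrc1 (632 and 393 CPM against at most 453) and Cd68 (157.1 and 179 against at most 157.2). Those above included Fcgr1 (39.3 and 55.8 CPM against at most 13.2), C1qa (291 and 529 against at most 128) and C1qb (123 and 192 against at most 47.1). In the fit of the other 13 tumors, all 10 macrophage markers were higher than in Sham (log2 medians 0.871 in TGFbi+RT and 1.3 in the triple group). All 8 T and NK cell markers tested there were higher as well (4.56 and 4.82), and so was Ptprc (1.95 and 2.32). Sham means were near the floor for several T and NK cell markers, such as 0.061 CPM for Cd2, 0.069 for Cd8a and 0.156 for Prf1. A marker so low in Sham passes the low-count filter only through groups where it is higher. Its direction against Sham is then no separate result, and the T and NK cell medians rest on few Sham counts. The edgeR test called 0 of these genes, in that fit and with all tumors. With all tumors, DESeq2 called 5 of 12 T and NK cell markers in TGFbi+RT against Sham and 9 in the triple group. It called 2 and 6 of 10 macrophage markers, and Ptprc in both, where it called 3.05% and 3.86% of all genes. The log2 medians were then 6.47 and 8.14 for T and NK cell markers and 1.85 and 2.44 for macrophage markers. These T and NK cell medians again rest on few Sham counts. The summed levels of endothelial markers (402 and 461 CPM, against 95.7 to 566) and epithelial markers (693 and 748 CPM, against 547 to 1628) lay inside the range of the other tumors. Of 6 endothelial markers, 1 was above all other tumors in both, Vwf (47.25 and 65.49 CPM against at most 37.95). As for the labelled mammary carcinoma, the basal keratin Krt5 was present in every tumor, at 346 and 350.8 CPM in the tumors apart, the lowest pair, and 351.1 to 1116 CPM elsewhere. The part of these cells in the member values was not tested.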

How the data were processed

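RNA from 15 tumors and 1 internal reference library was extracted with a Qiagen RNeasy kit, depleted of ribosomal RNA with QIAGEN FastSelect and built into NEBNext Ultra II libraries, per the labels' protocols. The deposited table holds counts per Entrez gene made by the authors, with no normalization, on build GRCm38 per the submitters' processing notes. Its column names mention Subread. The counting program's settings, its use of strand and the release of the gene models are not given in the sources used here. The deposited annotation gives other values, the exon positions and lengths. Symbols were matched for 25275 of 27179 genes.

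In R 4.3.3, genes were filtered by filterByExpr of edgeR 4.0.16 and scaled by TMM. Group-only quasi-likelihood models covered 15 tumors and 16017 genes, with Benjamini-Hochberg adjustment over all of them and a threshold of 0.05. The common biological coefficient of variation was 0.364. Alternatives were DESeq2 1.42.0, limma-voom (limma 3.58.1), other scaling, no filter, terms for replicate number or library code, fits of only the groups compared, and tumors left out. The scripts were tested on simulated data. The members, the gene lists and the tests were chosen with earlier results of these data known. All members were named, and of each list up to 4 genes with the smallest p among the 5 groups, with Ifng, Irf1 and Cxcl9 always. For the endothelial and epithelial lists only the first such gene was named, Vwf and Krt5. A gene that these rules take is not reported here. Genes most like the members were ranked among those with a mean of at least 1 CPM, by log2 CPM (prior count 2). Genes named beyond these rules (Gbp4, Ifngr1, Jak2, Ptpn2, Irgq, Nkg7 and the ATG genes among them) were picked after their values were seen. The reference library entered no comparison.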

Additional observations from a re-analysis of the deposited data

Results flagged for a closer look

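The internal reference library, which belongs to no treatment group and is not described further in the labels, held several members above the highest Sham tumor on the CPM scale of its own total. It measured 129.2 CPM for Gbp2 (Sham 7.45 to 19.1), 31.65 CPM for Gbp3 (4.42 to 27.0), 7.775 CPM for Gbp5 (0.491 to 4.23), 59.86 CPM for Gbp7 (14.5 to 55.7), 8.219 CPM for Iigp1 (0.737 to 4.67) and 13.66 CPM for Irgm2 (2.54 to 9.72). In the same library Tgtp1 (1.89 CPM), Ifi47 (4.00 CPM) and Irgm1 (26.2 CPM) lay below the lowest Sham tumor, and Igtp (10.8 CPM) inside the Sham range. It is 1 library, so no spread can be given.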

How the results depend on the processing

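The limit for a median was the spread of 1.49 log2 between tumors of a group, a wide one since it includes the 2 tumors apart. Within it, limma-voom gave lower medians in TGFbi+RT (2.18) and the triple group (1.91) against Sham. It also did so in TGFbi+RT against TGFbi (2.34) and RT (1.67). Its medians were higher in TGFbi (0.0718) and RT (0.506) against Sham and in the triple group against TGFbi+RT (-0.157). Member calls, and medians within that spread, held except as follows. DESeq2 called 1 member in the triple group against Sham and 1 among the 5 groups, where edgeR called 0. With its outlier filter off, which was chosen after seeing the data, it called 3 in TGFbi+RT against Sham, 3 in the triple group against Sham, 1 in TGFbi+RT against RT and 5 among the 5 groups. With library code as a term the member median was -2.01 in RT against Sham, 1.04 in the triple group against Sham, 5.23 in TGFbi+RT against RT and -2.12 in the triple group against TGFbi+RT. In that fit the code effect rests on the triple group alone. Without the 2 resubmitted libraries the median was 0.756 in TGFbi+RT against Sham, 1.12 against TGFbi and 0.374 against RT, and 2.18 in the triple group against TGFbi+RT. Without the 2 tumors apart it was 0.742, 0.966 and 0.375 for those 3 comparisons of TGFbi+RT, and 0.542 in the triple group against Sham.

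Leaving out 1 tumor at a time gave medians of 0.74 to 3.71 in TGFbi+RT against Sham, 0.54 to 3.4 in the triple group against Sham, 0.951 to 3.82 in TGFbi+RT against TGFbi, 0.376 to 3.37 in TGFbi+RT against RT and -2.48 to 2.18 in the triple group against TGFbi+RT. For the 3 comparisons of TGFbi+RT the lowest value came without its replicate 3, and for the triple group against Sham without triple replicate 2. For the triple group against TGFbi+RT the sign turned on which of these was left out. Medians of TGFbi against Sham were -0.405 to 0.414 (lowest without Sham replicate 2, highest without Sham replicate 3) and of RT against Sham 0.011 to 0.783 with the same tumors left out. In all of these fits edgeR called 0 members.

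The replicate block gave medians of 2.9 in TGFbi+RT and 3.14 in the triple group against Sham and called 0 members. It moved the median of the triple group against TGFbi+RT from -0.39 to 0.168 and changed no call. Same-numbered tumors of different groups had correlations of deviations from -0.77 to 0.791 (median -0.0546), and differently numbered tumors a median of 0.0403. With so wide a range, these values cannot settle whether the numbers pair the tumors. Limma-voom called 0 members in every comparison, where it called 0 of all 16017 genes as well. The cause of these differences was not tested. Counts of 6 (Gbp5) and 9 (Iigp1) in the lowest tumor limit the precision of their low levels.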
